A study of Mus musculus with 6 samples.

Results

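The contact profile of Cdx4 was read from maps of DNA contacts, made by capture Hi-C, across the X-inactivation centre of the mouse. Cdx4 (ENSMUSG00000031326.2) lies on the plus strand at chrX:100516737-100525931 (mm9), and its annotated transcript has 3 exons. The profile was taken from 5 of the 210 bins of 5 kb that cover chrX:100215001-101265000. These 5 bins, chrX:100510001-100535000, are the ones that hold Cdx4 and 1 bin on each side. They were chosen by position only, with no measured value. All 5 passed the filter on bins of low total signal, which left out 3 bins of each map of all reads and 4 bins of each allelic map.

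Capture Hi-C joins DNA ends that lie close together in the nucleus, pulls out the joined fragments of a chosen region with probes and counts them for each pair of bins. The cells were female mouse embryonic stem cells of the cross CAST/EiJ x 129S1. All groups share this cross, and day 4 and day 7 share the same differentiation protocol, per the labels. Day 0 (1 library) was undifferentiated and untransfected, and these cells were kept on irradiated MEF feeders. Whether feeders were removed before the day 0 collection is not stated in the labels. Day 4 (1 library) was untransfected and had been differentiated as embryoid bodies without LIF and without feeders. Day 7 control (2 libraries) had been transfected with a scrambled LNA, a modified antisense oligonucleotide, and day 7 depleted (2 libraries) with a Jpx LNA. Both were collected 8 hours after transfection. Day and transfection therefore cannot be told apart where day 7 is set against day 0 or day 4. The 7 maps were 3 of all reads (day 0, day 4 and day 7 control library 1, the only library whose label names that map) and 4 allelic maps of day 7, named cas and mus, each of which combined both libraries of its condition. In the maps of all reads both X chromosomes are averaged. Which allele is the inactive one in these cells, and how far the LNA lowered Jpx RNA, are not stated in the labels.

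Cdx4 encodes a caudal-type homeobox transcription factor that acts in early patterning and blood formation in the embryo. It sits beside the X-inactivation centre, the stretch of the X chromosome from which one of the X chromosomes of a female cell is silenced. Silencing starts when the noncoding RNA Xist coats the chromosome. Tsix, transcribed across Xist in the opposite direction, holds Xist back, while the noncoding RNA genes Jpx and Ftx and the ubiquitin ligase gene Rlim are known as activators. Contacts within the centre are divided into neighbouring domains, with the Tsix side and the Xist side separated near the Xist and Tsix promoters. Cdx4 lies on the Tsix side together with Nap1l2, Chic1 and Tsx.

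The sequences that define the viewpoint are given first. Of the 1067 deposited capture probes, 36 lie in the Cdx4 bins, and the bins hold 7, 10, 10, 6 and 3 of them from left to right, against a median of 4 for all bins. None of the 36 probes contains GATC, the site that MboI cuts, but 35 have one within 100 bp, and 18 overlap Cdx4. The probes nearest the centre of the bin with the Cdx4 start and of the right-hand bin are shown as read from mm9 on the plus strand, each with the stretch to its nearest GATC, which is in capitals. They show what the measurement needs: a probe beside a cut site. The probe named for the Cdx4 start shares the bin of that start but lies just past exon 1, which ends at chrX:100517394.
Probe at the Cdx4 start, chrX:100517400-100517523: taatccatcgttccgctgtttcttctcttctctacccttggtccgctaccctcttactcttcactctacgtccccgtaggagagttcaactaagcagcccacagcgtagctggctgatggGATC
Probe in the right-hand bin, chrX:100532433-100532556: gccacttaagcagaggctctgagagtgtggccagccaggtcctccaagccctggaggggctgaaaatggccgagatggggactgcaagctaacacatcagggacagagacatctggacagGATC

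The Cdx4 promoter, 300 bases around the start from the RefSeq table of GRCm38.p6, matched mm9 once, at chrX:100516487-100516786. It holds no GATC and 8 CpG, and 50.3% of its bases are G or C, so contacts of the promoter are seen through the cut sites around it.
Cdx4 promoter: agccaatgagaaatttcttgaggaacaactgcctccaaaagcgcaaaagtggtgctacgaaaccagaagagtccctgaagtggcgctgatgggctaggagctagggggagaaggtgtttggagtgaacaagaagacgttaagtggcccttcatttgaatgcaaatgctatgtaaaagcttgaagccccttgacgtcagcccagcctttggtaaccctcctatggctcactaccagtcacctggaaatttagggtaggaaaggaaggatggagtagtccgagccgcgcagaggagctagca

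CTCF is the zinc-finger protein that halts loop extrusion at domain borders, and its sites work in one orientation. Its core letters, taken as CCA, any 2 bases, AG, any 2 bases and GGC, were searched on both strands of the mm9 region. The letters were found 102 times with no overlap, 54 times on the plus strand and 48 times on the minus strand. The most frequent form was CCAGAAGAGGGC, with 46 matches. Many of these also have nearly the same bases on each side of the core, as does the match in the Cdx4 bins. Such matches are not independent sequences. The Cdx4 bins hold 1 match, on the minus strand, where 87.9% of all stretches of 25 kb hold at least 1. The pair of 30 kb windows that Cdx4 contacted most at day 0, chrX:100455001-100485000 to the left and chrX:100540001-100570000 at Chic1, hold 6 matches (5 plus, 1 minus) and 4 matches (all minus). At least 6 matches were found in 13.2% and at least 4 in 35.1% of all 30 kb windows. The match of the viewpoint and examples from both windows are given 5′ to 3′ on their own strand, with the core in capitals. A match describes letters of the reference genome, not binding, and neither parental strain is the reference.
Cdx4 bins, minus strand, chrX:100530048-100530077: tcagacactCCAGAAGATGGCatcagatct
Left window, plus strand, chrX:100455384-100455413: accaggtgaCCACTAGATGGCggtatagta
Left window, plus strand, chrX:100469871-100469900: cacttcaggCCACCAGGTGGCagttttgta
Chic1 window, minus strand, chrX:100547449-100547478: ttacaaacaCCAAAAGAGGGCgtcatatct

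The depth behind the profile was as follows. Contacts between bins numbered 91391 at day 0, 88600 at day 4 and 90405 at day 7, and 37347, 27674, 31832 and 23705 in control cas, control mus, depleted cas and depleted mus. Contacts of Cdx4 at 10 kb or more numbered 3953, 4072 and 3973 in the maps of all reads and 1405, 1167, 1226 and 925 in the allelic maps, in the same order. These were 4.94%, 5.03% and 4.92% of contacts at that range in the maps of all reads and between 4.16% and 4.71% in the allelic maps. The signal of the Cdx4 bins ran from 0.734 to 1.60 times the median bin of its map.

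Each contact value below is the observed signal over the mean signal of the same map at the same separation, so that 1 is the average pair of bins of the region at that distance. Intervals are 95% intervals for counting error only. They do not include differences between libraries or cultures, and PCR copies are not independent molecules. Each group has 1 map, so no p-value is given. A difference is called higher or lower where it reaches 1.5-fold, both maps hold at least 10 contacts and the interval leaves out 0 on the log2 scale. The comparisons of day 4 and of day 7 with day 0 share the day 0 map.

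The first question was how the profile differed between days of differentiation. At day 0, Cdx4 contacted its near surroundings more and the distant parts of the region less than the average pair. By day 4 its contacts with the part beyond Xist had risen 1.82-fold, and those with the left part were near average, while near contacts made up a smaller share of its signal. Day 7 was close to day 4 beyond Xist. It was higher to the left and lower between Cdx4 and Xist, both by less than 1.5-fold.

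The part called beyond Xist starts at chrX:100670001, near the middle of Xist. It holds the Xist promoter, Jpx, Ftx, Zcchc13 and Rlim. Contact of Cdx4 with it was 0.519 (0.457 to 0.596; 496 contacts) at day 0, 0.943 (0.875 to 1.02; 1085 contacts) at day 4 and 0.951 (0.882 to 1.03; 1029 contacts) at day 7. The day 0 interval lies below both others, which overlap. The change was 0.86 (0.65 to 1.07) on the log2 scale from day 0 to day 4 and 0.87 (0.66 to 1.08) from day 0 to day 7, and 0.01 (-0.14 to 0.16) from day 4 to day 7. As a share of all Cdx4 signal at 10 kb or more, it was 11.5%, 23.4% and 22.7%.

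The same change was measured for every other viewpoint of 5 bins on the Tsix side, to see whether Cdx4 stands apart there. Over the 82 viewpoints the median change to day 4 was 0.62 on the log2 scale, with a range from -0.59 to 1.17, and Cdx4 ranked 26 from the highest. For day 7 over day 0 the median was 0.55 and Cdx4 ranked 14. Most of the Tsix side thus gained contact with the part beyond Xist, and Cdx4 lay in the upper part of that range.

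The left part, chrX:100215001-100510000, holds Nap1l2. The day 0 map had a contact of 0.786 (0.729 to 0.850) with it, the day 4 map 1.03 (0.963 to 1.11) and the day 7 map 1.16 (1.08 to 1.24). The log2 differences were 0.40 (0.25 to 0.54) for day 4 and 0.56 (0.41 to 0.71) for day 7 over day 0, both below 1.5-fold. Between Cdx4 and the middle of Xist, where Chic1, Tsx and the Tsix promoter lie, contact was 1.18 (1.11 to 1.24), 1.21 (1.15 to 1.29) and 1.08 (1.02 to 1.15) in order of day. The values of that section overlapped between day 0 and day 4. From day 4 to day 7 its log2 difference was -0.17 (-0.29 to -0.05), and that of the left part 0.16 (0.02 to 0.31). Both intervals leave out 0, and both differences are below 1.5-fold. The share of Cdx4 signal between Cdx4 and the middle of Xist was 42.6%, 32.5% and 31.0%.

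**Figure D1:**
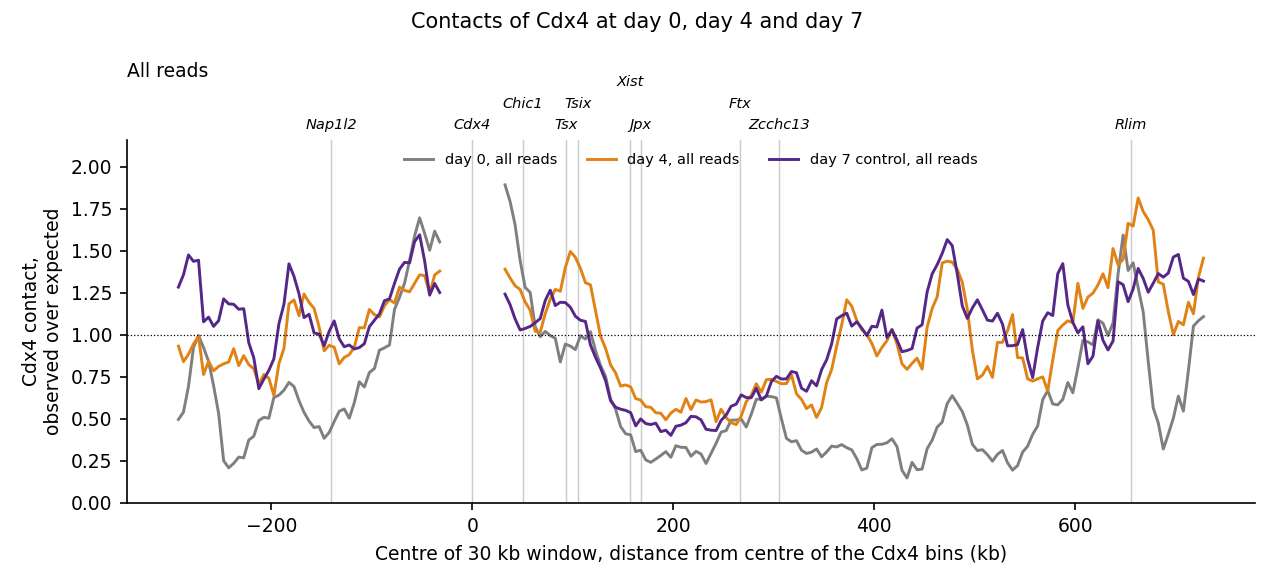
Contact of Cdx4 (observed over expected, vertical axis) with 30 kb windows by their distance from the centre of the Cdx4 bins in kb (horizontal axis), at day 0, day 4 and day 7, all reads; grey lines mark genes and the dotted line is the average pair. The day 0 line peaks at 1.89 over Chic1 and lies below the other days over most of the part beyond Xist.

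The loss of weight near Cdx4 shows in the shares by distance. Contacts at 10 to 50 kb made up 49.0% (47.3 to 50.7) of Cdx4 signal at day 0, 31.7% (30.1 to 33.2) at day 4 and 32.0% (30.5 to 33.6) at day 7. The same range made up 36.1%, 31.5% and 33.1% of the signal of the whole map. The near share of Cdx4 was well above that of the map at day 0, and at day 4 and day 7 the share of the map lay within the interval of Cdx4. The share of Cdx4 leaves out pairs within its own bins and that of the map keeps all pairs, so these shares are not of like sets. Over the mean at equal separation, contact at 10 to 50 kb was 1.67, 1.32 and 1.27 in order of day, above 1 on every day. At 300 to 500 kb the share of Cdx4 was 3.46%, 8.96% and 9.62%, against 10.9%, 12.2% and 12.1% for the map.

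Divided into pieces of about 100 kb, the gain was uneven. The piece 335 to 435 kb to the right of the Cdx4 bins had the highest change of the 9 pieces: contact was 0.281 (71 contacts), 0.928 (238 contacts) and 1.02 (244 contacts) at day 0, day 4 and day 7, a rise of 1.73 (1.32 to 2.13) on the log2 scale to day 4. The next piece, at 435 to 535 kb, rose from 0.376 to 1.08 and was 1.22 at day 7. Both pieces lay well below average at day 0 and reached it by day 4, and the second was above it at day 7, with an interval from 1.05 to 1.42. The piece at 135 to 235 kb, with the Xist and Jpx promoters and the 3′ end of Ftx, was 0.295, 0.586 and 0.458, a rise of 0.99 (0.67 to 1.31) to day 4, and stayed below average on every day. In the piece at 535 to 635 kb the values were 0.772, 1.07 and 0.989, with overlapping intervals.

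To the left, the pieces at 95 to 195 kb and 195 to 295 kb also rose. They went from 0.544 to 0.995 and from 0.513 to 0.860 between day 0 and day 4. The piece within 95 kb was 1.29 (1.21 to 1.38), 1.25 (1.16 to 1.34) and 1.26 (1.18 to 1.36), with overlapping intervals. Single windows within it differed: chrX:100455001-100485000 had a log2 difference of -0.32 (-0.53 to -0.12) to day 4, and chrX:100475001-100505000 one of -0.31 (-0.50 to -0.12) to day 7, both below 1.5-fold. Matched for separation, the log2 ratio of contacts to the right over the left in order of day was 0.07 (-0.04 to 0.18), -0.10 (-0.21 to 0.01) and -0.33 (-0.44 to -0.22). The profile had no side preference at day 0 beyond counting error and leaned left at day 7.

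**Figure D2:**
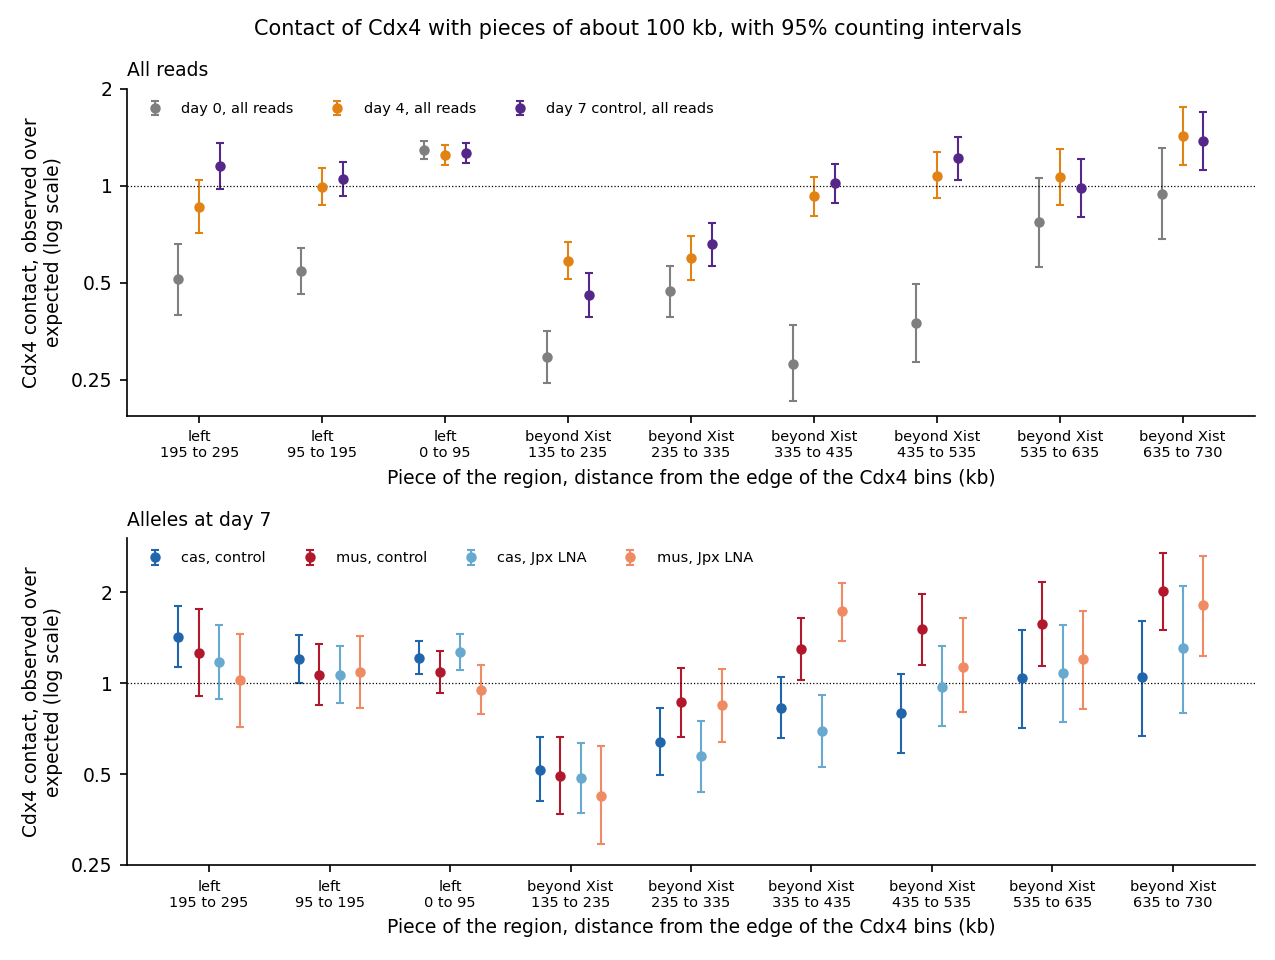
Contact of Cdx4 (observed over expected, log axis) with pieces of about 100 kb to the left and beyond Xist, by distance from the edge of the Cdx4 bins in kb; points are map values and bars 95% counting intervals, for the maps of all reads (top) and the allelic maps (bottom). Day 0 is lowest in 8 of the 9 pieces, and in the bottom panel both mus maps lie above both cas maps in the 5 pieces from 235 kb on.

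The loci were described next, each as its gene body or promoter with 10 kb on each side, first the neighbours on the Tsix side. Among the 9 loci, 4 rose and 0 fell from day 0 to day 4, and 2 rose and 0 fell from day 0 to day 7. Some locus windows share bins: Tsx with Chic1 and with Tsix, Xist with Jpx, and Ftx with Zcchc13. The loci are therefore not independent of each other. Over windows of all viewpoints of the region, 17.7% were called higher and 8.46% lower by the same rule for day 4 over day 0, and 18.1% and 10.1% for day 7 over day 0. Those windows are 30 kb long, and the locus windows run from 25 to 85 kb. Of 35 annotated genes clear of the viewpoint, these loci among them, 16 had enough contacts, of which 7 rose and 0 fell to day 4, and 4 rose and 0 fell to day 7.

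Nap1l2, a brain-expressed nucleosome assembly gene at chrX:100379515-100381979, had a contact of 0.418 (53 contacts), 0.937 (89) and 1.02 (110) at day 0, day 4 and day 7. It rose by 1.16 (0.64 to 1.69) on the log2 scale to day 4 and by 1.29 (0.78 to 1.79) to day 7. The day 0 interval, 0.308 to 0.567, does not overlap either later interval. Chic1, the next gene to the right at chrX:100551815-100591431, was highest at day 0. Its contact was 1.43 (1.34 to 1.52; 1049 contacts) at day 0, 1.19 (1.10 to 1.28; 745) at day 4 and 1.16 (1.07 to 1.26; 702) at day 7. The log2 differences of -0.27 (-0.41 to -0.12) and -0.30 (-0.45 to -0.15) leave out 0 but stay below 1.5-fold. At day 0, the Chic1 contact was above 94.3% of rectangles of the same shape and separation in the map, and at day 7 above 74.0%.

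Tsx, a gene first described in testis at chrX:100609806-100619919, had contacts of 0.882, 1.30 and 1.16, with 219, 306 and 262 contacts. Its day 4 difference was 0.56 (0.30 to 0.82) on the log2 scale, just below 1.5-fold. The Tsix promoter window, chrX:100615001-100640000, had 0.941, 1.43 and 1.08, and rose by 0.61 (0.29 to 0.92) to day 4. The rise of Tsix is just past 1.5-fold and misses that fold under 5 of the 10 other settings. At day 7 Tsix was 0.20 (-0.14 to 0.54) above day 0, and the log2 difference to day 4 was -0.41 (-0.71 to -0.10), neither of them called.

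Across the Xist border, contacts were low on every day. The Xist promoter window, chrX:100665001-100690000, had 0.429 (66 contacts), 0.716 (104) and 0.534 (78), a rise of 0.74 (SE 0.23 from counting) on the log2 scale to day 4. The Jpx promoter window, chrX:100675001-100700000, shares 3 bins with it and had 0.276 (38 contacts), 0.620 (75) and 0.471 (60). Jpx rose by 1.17 (0.60 to 1.74) to day 4 and by 0.77 (0.18 to 1.37) to day 7. At day 0 Jpx was the lowest of the 9 loci, above 9.25% of rectangles of its shape and separation, and its interval, 0.194 to 0.385, overlaps those of the next loci in the order, Nap1l2 and Xist.

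Farther right, no locus was called on any day. Ftx, chrX:100756246-100819093, had 0.471, 0.615 and 0.564. Zcchc13, a zinc-finger gene at chrX:100825925-100827003, had 0.559, 0.702 and 0.737. The Rlim promoter window, chrX:101165001-101190000, had 1.53 (0.967 to 2.34; 24 contacts), 1.65 (1.19 to 2.26; 45) and 1.35 (0.939 to 1.91; 36). Rlim had the highest value of the 9 loci on all 3 days, with a wide interval that overlaps the next locus in the order each time.

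**Figure D3:**
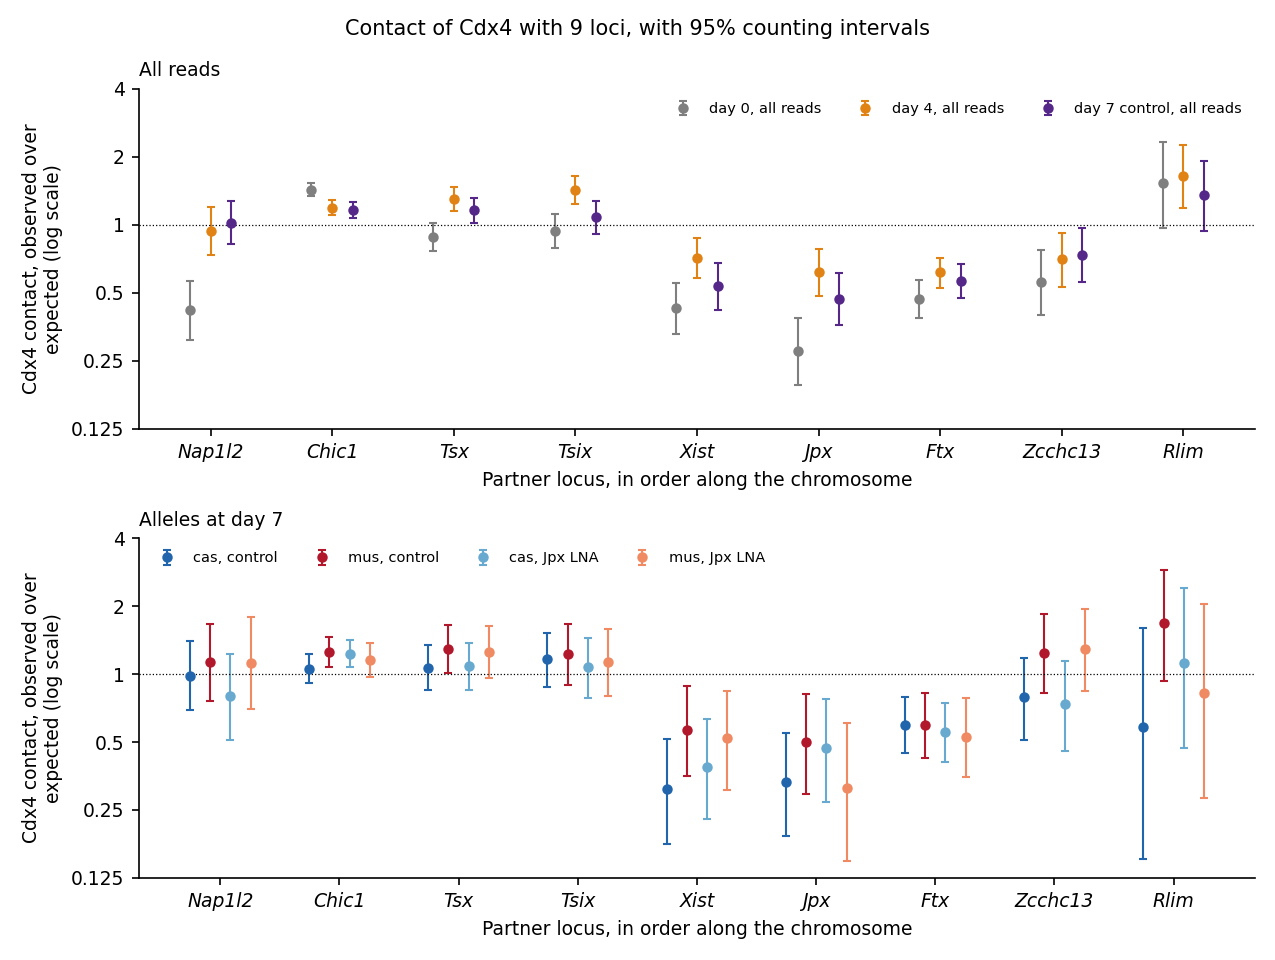
Contact of Cdx4 (observed over expected, log axis) with 9 loci in chromosome order; points are map values and bars 95% counting intervals, for the maps of all reads (top) and the allelic maps (bottom). Nap1l2, Tsx, Tsix, Xist and Jpx lie lowest at day 0 with intervals clear of day 4. Chic1 is highest at day 0, and the allelic intervals of each locus overlap between alleles.

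The profile was also read in 193 overlapping windows of 30 kb, at steps of 5 kb. From day 0 to day 4, 103 of 182 windows with enough contacts were at least 1.5-fold higher and 0 were lower, where 22.1% of windows of all viewpoints were higher and 12.1% lower. From day 0 to day 7, 95 were higher and 3 lower of 182, against 22.1% and 13.7%. The other 11 windows held at most 9 contacts at day 0 and had more at day 4 and at day 7. Of the higher windows, 71 lay wholly beyond Xist, of 103 with enough contacts there. Wholly to the left lay 26 of 53, and wholly between 3 of 21. Between day 4 and day 7, 6 of 193 windows were higher and 1 lower, shares of 3.11% and 0.518% against 4.61% and 4.55% over all viewpoints. None of the 9 loci was called between these days, against 1.88% of windows called higher and 2.3% lower with the interval.

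The highest rise to day 4 was in the window centred 387.5 kb to the right of Cdx4, from 0.195 (17 contacts) to 1.03 (89 contacts), 2.40 (1.62 to 3.18) on the log2 scale. A window to the left, chrX:100265001-100295000, went from 0.209 (11 contacts) to 0.838 at day 4 and 1.18 at day 7. The lowest change was at the start of Chic1, chrX:100540001-100570000, which had 1.89 (767 contacts) at day 0, 1.39 (479) at day 4 and 1.24 (445) at day 7. That window was the strongest partner of Cdx4 at day 0, and by day 7 it had fallen by 0.61 on the log2 scale, past 1.5-fold. The left window chrX:100455001-100485000, second at day 0 with 1.70 (1.54 to 1.87), was the strongest of all at day 7 with 1.59 (1.43 to 1.77).

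The 5 bins of the viewpoint were compared with each other. Contact beyond Xist was higher at day 4 than at day 0 in all 5, by 0.45 to 1.54 on the log2 scale, and 4 of the 5 intervals leave out 0. The bin with the Cdx4 start, chrX:100515001-100520000, went from 0.594 to 1.37 on 152 and 361 contacts. The bin with the end of Cdx4 and most of its last exon, chrX:100525001-100530000, had the largest change, from 0.287 to 0.837 on 46 and 157 contacts. The right-hand bin, with the fewest probes, went from 0.453 to 0.618 and its interval holds 0.

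The insulation score of a bin was the average signal of pairs that span it, from the 100 kb to its left to the 100 kb to its right, on a log2 scale relative to the median bin of the map. A high score marks a bin that contacts cross freely, and a low one a border. At day 0 the bin at the middle of Cdx4 had the highest score of all 168 bins, 0.89 (0.84 to 0.93), so contacts crossed Cdx4 more than any other bin. The day 4 score was 0.55 (0.49 to 0.60) and the day 7 score 0.63 (0.58 to 0.69), and other bins were higher in those maps. The mean over the 5 Cdx4 bins was 0.86, 0.54 and 0.63.

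All 5 bins were lower at day 4 than at day 0, with differences from -0.34 to -0.30, and they took ranks between 1 and 8 from the lowest difference of the 168 bins. An interval below 0 was found for 28.6% and one above 0 for 29.8% of all bins. For day 7 over day 0 all 5 were lower too, with differences from -0.25 to -0.18 against 25% of all bins below and 40.5% above 0, and from day 4 to day 7 all 5 were higher by 0.08 to 0.12, where 50% of bins were higher. With windows of 200 kb in place of 100 kb the day 4 difference at the middle bin was -0.08, and the day 7 over day 4 difference turned to -0.035 (-0.090 to 0.020). On each side of Cdx4 the score fell away. The bin 90 kb to the left had -0.78, -0.38 and -0.10 at day 0, day 4 and day 7, and the bin 110 kb to the right, beside the Tsix promoter, had -0.63, -0.54 and -0.73. The score 90 kb to the left thus rose from day to day, while the bin 110 kb to the right held ranks 155, 160 and 161 from the highest of 168. That right-hand bin ends the stretch that was read, and the score was still falling there on each day. Its ranks therefore do not describe a border.

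Contacts that cross Cdx4 from the left to the right were above average at day 0 at every range, with 1.81 at 10 to 50 kb, 1.62 at 50 to 100 kb and 1.85 at 100 to 200 kb. At day 4 they were 1.41, 1.31 and 1.52, and at day 7 1.34, 1.37 and 1.47. Every day 4 and day 7 interval lies below that of day 0, but no difference reached 1.5-fold.

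**Figure D4:**
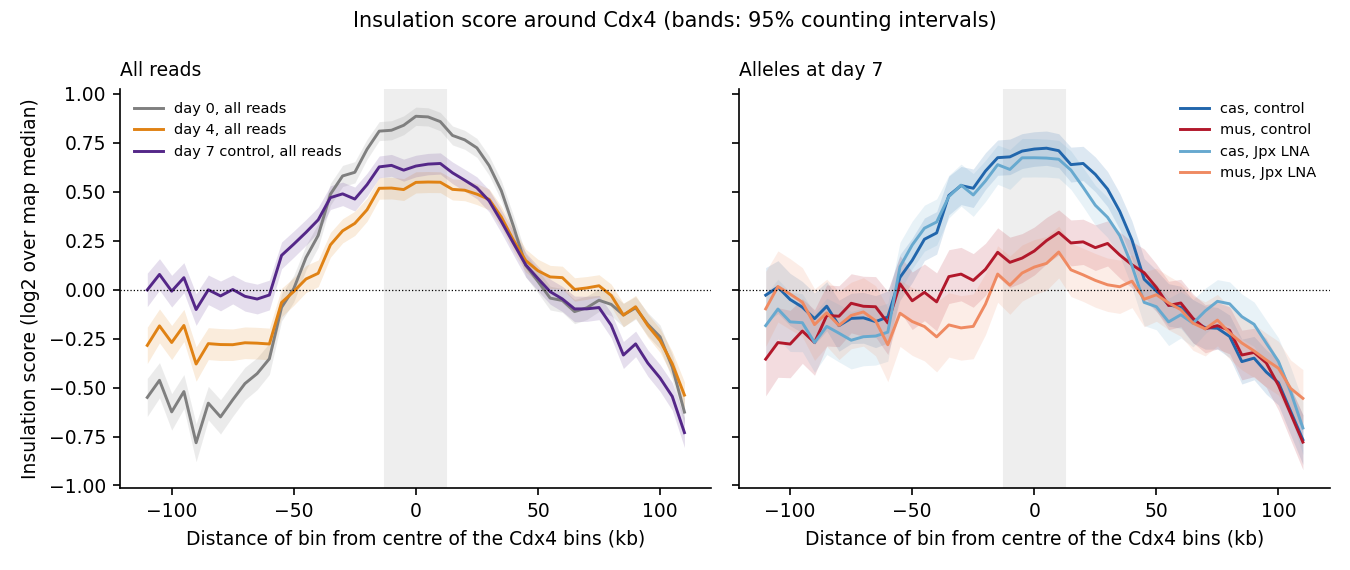
Insulation score (log2 over the map median, vertical axis) of bins by distance from the centre of the Cdx4 bins in kb (grey band), for the maps of all reads (left) and the allelic maps (right); lines are scores and bands 95% counting intervals. At Cdx4 day 0 is highest (0.89 at the middle bin), and both mus maps (0.20 and 0.12) lie below both cas maps (0.72 and 0.67).

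The next question was whether the alleles differ at day 7. In control cells Cdx4 contacted the part beyond Xist 1.59-fold more on the mus allele than on the cas allele, and its insulation score was lower on mus. For the left part as a whole and the near genes of the Tsix side, the intervals of the difference hold 0.

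Beyond Xist, contact was 0.811 (0.706 to 0.936; 365 contacts) on cas and 1.29 (1.14 to 1.46; 393) on mus in control cells, a difference of 0.67 (0.41 to 0.92) on the log2 scale. In depleted cells it was 0.849 (0.726 to 1.00; 319) on cas and 1.19 (1.03 to 1.37; 308) on mus, a difference of 0.48 (0.19 to 0.78), below 1.5-fold. On mus these were 28.9% and 28.0% of Cdx4 signal. All 5 bins of the viewpoint were higher on mus in control, by 0.35 to 0.78, and 4 intervals leave out 0. Among 78 viewpoints of the Tsix side the control difference ranked 4, with a median of 0.24 and a range from -0.55 to 0.79, and the depleted difference ranked 22, with a median of 0.36.

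With the median at each separation as the expected value, the control difference turned to -0.44 (-0.97 to 0.10). On mus that median is 0 at all 150 separations of 300 kb or more, and on cas at 144 of them, so most of the part beyond Xist has no value in that setting. Under the other 9 settings the control difference was between 0.55 and 0.73.

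The higher contact on mus beyond Xist lay in the more distant pieces. At 135 to 235 kb the values were 0.517 on cas and 0.493 on mus in control. They were 0.830 and 1.30 at 335 to 435 kb, 0.797 and 1.51 at 435 to 535 kb, and 1.05 and 2.02 at 635 to 730 kb, differences of 0.64 (0.19 to 1.09), 0.92 (0.37 to 1.47) and 0.94 (0.23 to 1.65) on the log2 scale, all called. The pieces at 235 to 335 kb and 535 to 635 kb were not called. Their control differences were 0.43 (-0.07 to 0.93) and 0.60 (-0.06 to 1.25), with intervals that hold 0. In depleted cells only the piece at 335 to 435 kb was called, with 0.694 on cas and 1.73 on mus, a difference of 1.32 (0.84 to 1.79). Of 167 windows with enough contacts in control, 50 were at least 1.5-fold higher and 9 lower on mus, against 17.3% and 12.4% over all viewpoints. Of the 95 windows wholly beyond Xist, 46 were higher and 2 lower, and of the 46 wholly to the left, 2 were higher and 7 lower. The shares over all viewpoints were not divided by section. Near Cdx4 on the left, the window chrX:100455001-100485000 was lower on mus, with 1.67 (174 contacts) on cas and 1.08 (85) on mus, a log2 difference of -0.62 (-1.01 to -0.23). In depleted cells 39 of 142 were higher and 5 lower, against 20.2% and 13.1%.

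**Figure D5:**
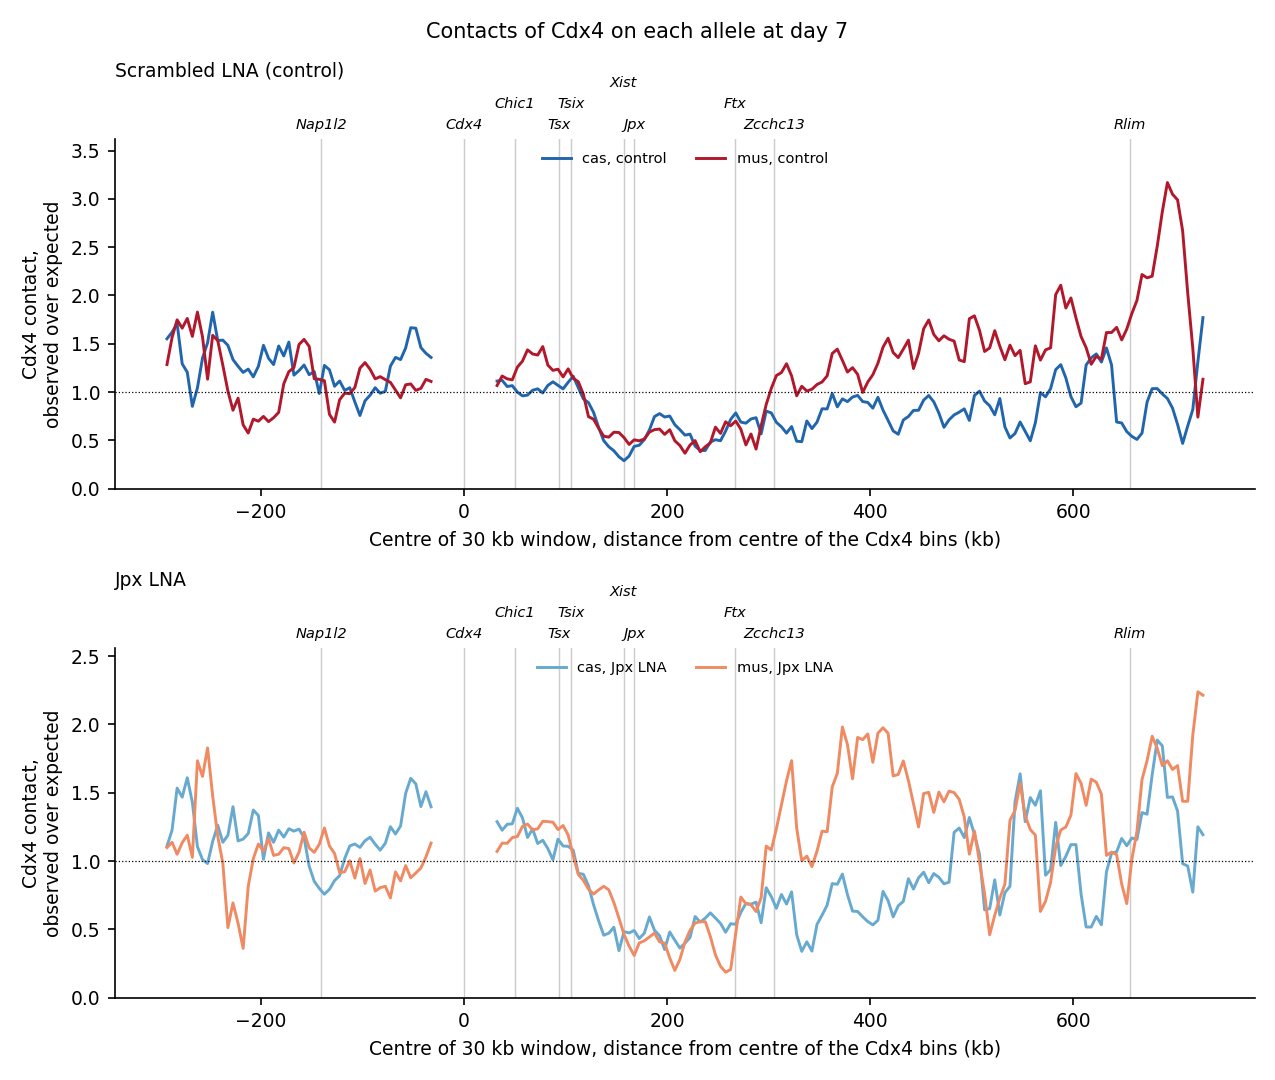
Contact of Cdx4 (observed over expected, vertical axis) with 30 kb windows by their distance from the centre of the Cdx4 bins in kb (horizontal axis), on the cas and mus alleles in control (top) and Jpx LNA cells (bottom) at day 7; grey lines mark genes and the vertical axes differ. From the Tsix promoter to Ftx neither allele lies above the other throughout, and from Zcchc13 on mus lies above cas over most windows. The control mus peak of 3.17 rests on 25 contacts.

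None of the 9 loci was called between alleles in either condition, where 9.57% of windows were called higher and 7.17% lower by this rule in control, and 11.1% and 7.08% in depleted cells. The Xist promoter had 0.309 (17 contacts) on cas and 0.568 (23) on mus in control, and 0.389 (18) and 0.523 (18) in depleted cells. Jpx had 0.333 (17) and 0.502 (18) in control and 0.470 (17) and 0.313 (10) in depleted cells. Zcchc13 had 0.789 (27) and 1.25 (29), and then 0.736 (22) and 1.30 (26), higher on mus in both conditions with intervals of the difference that hold 0. Rlim had 4 and 16 contacts in control and 8 and 6 in depleted cells, too few for a ratio. At the near genes every interval of the control difference holds 0. Chic1 had 1.06 (0.917 to 1.22) and 1.25 (1.08 to 1.46) in control, and the log2 difference was 0.25 (-0.04 to 0.54). For Nap1l2, Tsx and Tsix the control differences were 0.20 (-0.50 to 0.90), 0.28 (-0.18 to 0.74) and 0.07 (-0.49 to 0.64).

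Contacts crossed Cdx4 less on mus. The middle bin scored 0.72 (0.63 to 0.81) on cas and 0.20 (0.07 to 0.32) on mus in control, and 0.67 (0.58 to 0.77) and 0.12 (-0.03 to 0.26) in depleted cells. All 5 bins were lower on mus in control, with differences from -0.55 to -0.42 and ranks between 1 and 15 from the lowest difference of the 168 bins, where 26.8% of bins had an interval below 0. In depleted cells all 5 were lower, with differences from -0.59 to -0.47 and ranks between 5 and 13, against 22% of bins. With windows of 200 kb the control difference at the middle bin was -0.17 in place of -0.52. Contacts that cross Cdx4 at 50 to 100 kb were 1.59 on cas and 1.05 on mus in control, a log2 difference of -0.60 (-0.85 to -0.35), and 1.47 and 0.894 in depleted cells, a difference of -0.72 (-1.01 to -0.42). At 100 to 200 kb the differences were -0.54 (-0.78 to -0.31) and -0.56 (-0.82 to -0.30), below 1.5-fold, and at 10 to 50 kb -0.17 (-0.53 to 0.19) and -0.28 (-0.68 to 0.12), both with intervals that hold 0. Matched for separation, contacts to the right over those to the left were -0.57 (-0.76 to -0.39) on the log2 scale on cas in control and -0.15 (-0.36 to 0.07) on mus, and mus minus cas was 0.43 (0.14 to 0.71). In depleted cells mus minus cas was 0.19 (-0.13 to 0.51).

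The last question was whether the Jpx LNA moved the profile. On neither allele was a locus or a section called, against 1.33% of windows called higher and 1.44% lower on cas and 2.48% and 1.51% on mus. Contact beyond Xist differed by 0.07 (-0.22 to 0.36) on the log2 scale on cas and by -0.11 (-0.37 to 0.14) on mus, depleted over control, and the difference between these effects was -0.18 (-0.57 to 0.21). These intervals stop short of the 1.5-fold used for a call. The left part differed by -0.13 (-0.36 to 0.10) on cas and -0.16 (-0.45 to 0.14) on mus, and the section between Cdx4 and Xist by 0.13 (-0.09 to 0.35) and -0.02 (-0.27 to 0.23).

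Jpx itself, the gene whose RNA was targeted, had 0.50 (-0.49 to 1.48) on cas and -0.68 (-1.81 to 0.45) on mus, depleted over control on the log2 scale, on 10 to 18 contacts a map. Xist had 0.33 (-0.64 to 1.31) and -0.12 (-1.03 to 0.79). On so few contacts, these intervals reach past 1.5-fold in both directions for Xist, upwards for Jpx on cas and downwards for Jpx on mus. Of the 30 kb windows, 9 were higher and 16 lower of 159 on cas, against 6.27% and 5.28%, and 9 higher and 13 lower of 153 on mus, against 9.08% and 6.82%. The lowest window on cas was chrX:100705001-100735000, just right of Jpx, with 0.741 (38 contacts) in control and 0.353 (19) in depleted cells, a difference of -1.07 (-1.89 to -0.24).

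The insulation scores of the 5 Cdx4 bins differed by -0.06 to -0.03 on cas and by -0.12 to -0.08 on mus, depleted minus control. Every one of these 10 intervals holds 0, where 1.19% of bins on cas and 2.38% on mus had an interval below 0. With windows of 200 kb the mus difference at the middle bin was -0.17 (-0.30 to -0.04).

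Genes whose own profile was most like that of Cdx4 were its neighbours. Likeness was the Pearson correlation of log2 profiles over partner bins outside both viewpoints, with 0.1 added, averaged over the 7 maps and compared for 10 genes. Tsx had a mean r of 0.40 (0.25 to 0.53 over the maps, 196 or 197 partner bins), Chic1 0.38 (0.19 to 0.59) and Nap1l2 0.23 (0.12 to 0.35). Partner bins within a map share their library and depth, and near viewpoints share much of their distance to a partner.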

How the data were processed

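Contacts of the X-inactivation centre were measured by capture Hi-C with 120 bp probes beside MboI sites in 6 libraries, and 7 maps were used. Each map gives the deposited signal, made by the authors, for pairs of 5 kb bins in mm9. The submitters' processing notes name Juicer 1.5.3, HOMER 4.8, Novoalign 3.00.02 and cutadapt 1.2.1, with no role given. Read filters, removal of duplicates, assignment of reads to alleles and the correction behind the signal are steps not given in the sources used here, and each could change the values.

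The unit was a signal and not a count. Within each map a factor for each bin could be found such that the values times the factors of both bins gave whole contacts for 99.99% to 100% of values (tolerance 0.01). These contacts set the intervals and the minimum of 10, and the levels use the deposited signal. Bins under 0.25 of the median total were left out. Signal at 10 kb or more was divided by the map's mean at equal separation. Intervals at 95% are gamma intervals for levels and delta-method intervals for log2 ratios. The text names 9 loci (gene bodies of Nap1l2, Chic1, Tsx, Ftx and Zcchc13, promoters of Tsix, Xist, Jpx and Rlim), the 3 highest and 3 lowest windows of a comparison that do not overlap, of which examples are given, and the 3 genes of most similar profile. The strongest windows of a map were named after their values were seen. The members and lists were chosen with earlier results of these data known. The computation was tested on simulated data. Alternatives covered the expected value, scaling, balancing, viewpoint, filters, separations, partner flanks and insulation windows. Python 3.11.15, numpy 2.4.6, scipy 1.17.1, pandas 2.3.3 and matplotlib 3.10.9 were used.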

Additional observations from a re-analysis of the deposited data

Results flagged for a closer look

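In the piece 335 to 435 kb to the right of Cdx4, the interval of the allelic difference in depletion effect left out 0. Contact was 0.830 (86 contacts) in control and 0.694 (66 contacts) in depleted cells on cas, and 1.30 (91 contacts) and 1.73 (97 contacts) on mus. The effects were -0.26 (-0.75 to 0.23) on cas and 0.42 (-0.02 to 0.85) on mus on the log2 scale, and both intervals hold 0. Mus minus cas was 0.67 (0.018 to 1.33). Of the 20 such differences examined, it was the only 1 whose interval leaves out 0. The interval was not widened for the number examined, so 1 such result among 20 can arise from counting error alone. The interval covers counting error only, and the difference was not tested among libraries.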

How the results depend on the processing

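Each group had 1 map, so intervals cover counting error and not the spread between libraries. No paired analysis was possible because each map holds 1 library or both libraries of a condition together, and leaving out a replicate could not be done for the same reason. In all, 17 other settings were tried, and the cause of a change was not tested unless given. Contact beyond Xist rose by 0.80 to 1.19 (day 4 over day 0) and by 0.80 to 1.27 (day 7 over day 0) on the log2 scale. With the median as the expected value, mus over cas there was -0.44 in control and 0.59 (-0.34 to 1.52) in depleted cells. That setting has no value where the median is 0. Between Cdx4 and Xist, day 4 over day 0 turned to -0.22 when scaled to the map total, and day 7 over day 0 to 0.088 at 50 kb or more. In that section 60 of 70 alternative results were the same, 6 weaker, 2 stronger and 2 reversed. For the left part 63 of 70 were the same, 4 weaker and 3 stronger.

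Counts of 30 kb windows past 1.5-fold either way moved by over 1.5 times as follows. With the median they were 13 for day 7 over day 4 (7 in the report), 9 and 21 for mus over cas in control and depleted cells (59 and 44), and 8 for depletion on mus (22). Without the flanking bins they were 24 for day 7 over day 4, 27 for mus over cas in control and 16 for depletion on cas (25). For day 7 over day 4 they were 2 with 2 flanking bins, 15 after balancing and 16 with bins that hold a probe. Balancing gave 40 for depletion on mus. With at least 20 contacts they were 64 for day 7 over day 0 (98), 16 and 20 for mus over cas in control and depleted cells, and 6 and 7 for depletion on cas and mus.

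For the insulation score at the middle bin, day 7 over day 4 was -0.051 with windows of 50 kb, -0.035 with 200 kb, -0.032 after balancing, -0.010 relative to the mean, 0.065 at 50 kb or more and 0.016 with bins that hold a probe. Depletion on mus was -0.17 with windows of 200 kb. Among single loci, Jpx for day 7 over day 0 lost its call under 3 settings and Xist for day 4 over day 0 with flanks of 5 kb (0.57), besides Tsix. Of 570 alternative results for Cdx4 with single loci, 549 were the same, 9 were weaker and 12 were stronger. The loci behind the stronger results are not listed here.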

Other observations

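Over the 193 overlapping windows, Cdx4 profiles of 2 maps correlated across windows with a Pearson's r of 0.75 for day 7 with day 4, 0.67 for day 4 with day 0 and 0.46 for day 7 with day 0. The r between the alleles was 0.16 in control and 0.30 in depleted cells, and between control and depleted cells it was 0.53 on cas and 0.60 on mus. Windows overlap and are not independent, and the allelic maps hold fewer contacts, so these values are descriptions.

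The left window chrX:100455001-100485000 was the strongest partner of Cdx4 in the day 7 map of all reads. On the alleles it had 1.67 (174 contacts) on cas and 1.08 (85 contacts) on mus in control, a log2 difference of -0.62 (-1.01 to -0.23). In depleted cells it had 1.61 (145 contacts) on cas and 0.878 (56 contacts) on mus, a log2 difference of -0.87 (-1.36 to -0.39), the lowest of the 142 windows with enough contacts. It was chosen after its values were seen.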
